A study of Homo sapiens with 12 samples.

Results

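The desmosome genes described here are DSG2, DSG3, DSC2, DSC3, PKP1, PKP2, PKP3, JUP, DSP and PPL. They were chosen by name, as the probe sets that carry exactly 1 of these symbols in the platform annotation. This gave 28 of 44988 probe sets with 1 symbol and 10 of the 18132 genes these stand for, and all 10 had a value on every array. The study asked what forced expression of the long noncoding RNA HOTAIR does in urothelial carcinoma, the common form of bladder cancer. Expression was profiled on 12 Affymetrix PrimeView arrays, 3 for each of 4 groups. VM-CUB1_HOTAIR 20 and 5637_HOTAIR 4 are clones of the established urothelial carcinoma lines VM-CUB1 and 5637 with a stably transfected HOTAIR plasmid, and VM-CUB1_LV and 5637_LV are the matching clones with the empty vector. All 4 were selected with puromycin and grown in DMEM with fetal calf serum. Each group is 1 clone, and its 3 arrays are RNA preparations of that clone. The p-values therefore rest on the spread of RNA preparations alone, and nothing here measures how clones vary. HOTAIR itself has no probe set with 1 symbol and was not analysed here, so its overexpression was not checked on the arrays. The study measured HOTAIR by quantitative RT-PCR in stable clones of both lines, and states that mostly those with the highest levels were used.

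Desmosomes are the junctions that hold neighbouring epithelial cells together and tie their keratin filaments into a continuous network. Desmogleins (DSG) and desmocollins (DSC) are cadherins that bridge the gap between the cells. Plakoglobin (JUP) and the plakophilins (PKP) bind the cadherin tails inside the cell, and desmoplakin (DSP) links them to the keratins, while periplakin (PPL) is a related plakin that binds intermediate filaments. In the urothelium these junctions join the cell layers, and carcinoma cells that scatter often hold fewer of them.

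The deposited values are log2 signals in which the median over the 6 arrays of a line was set to 0 for every probe set. A value thus tells how far an array lies from that median, and neither the level of a gene nor a difference in level between the lines can be read from it. With 3 arrays on each side, a gene that differed lies about equally far above and below 0, and only the gap between the groups is a measurement. A gene was represented by the mean of its probe sets. Array values of the same group correlated across genes with r between 0.94 and 0.95 in VM-CUB1_HOTAIR 20, 0.92 and 0.95 in VM-CUB1_LV, 0.83 and 0.85 in 5637_HOTAIR 4, and 0.78 and 0.83 in 5637_LV. These values are centred within a line, so r also depends on the gap between the groups and does not compare replicate quality between lines. Calls were made with limma, a linear model with moderated variance fitted over all genes, where the p adjusted by Benjamini-Hochberg was under 0.01. By this rule 41.6% of all genes in VM-CUB1 and 29.9% in 5637 were called in either direction. The standard error (SE) of a log2 fold change had a median of 0.07 over all genes in VM-CUB1 and 0.064 in 5637. In bulk RNA, fewer cells that make a transcript and less of it in each cell cannot be told apart.

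In VM-CUB1, 9 of the 10 desmosome genes were lower with HOTAIR and 0 were higher, in a comparison in which 20.5% of all genes were called lower and 21.1% higher. Of these, 7 were at least 2-fold lower, against 5.96% of all genes. In 5637, 4 of the 10 were higher with HOTAIR, and 0 were lower, where 14.7% of all genes were called higher and 15.2% lower. The median log2 fold change of the 10 genes was -3.22 in VM-CUB1 and 0.07 in 5637, beside medians over all genes of -0.029 and -0.038. Averaged over the 10 genes, the arrays read -1.34, -1.33 and -1.31 in VM-CUB1_HOTAIR 20, against 1.31, 1.31 and 1.27 in VM-CUB1_LV. In 5637 the same average was 0.10, 0.11 and 0.13 in 5637_HOTAIR 4, against -0.14, -0.16 and -0.16 in 5637_LV. By this average, the groups of each line were thus apart on every array. The signs were opposite in the 2 lines, and the gap was far wider in VM-CUB1. In 5637 the average does not stand for all 10 genes. PPL had by far the largest log2 fold change there (1.503), 6 of the 10 did not pass, and 3 lay below 0.

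**Figure D1:**
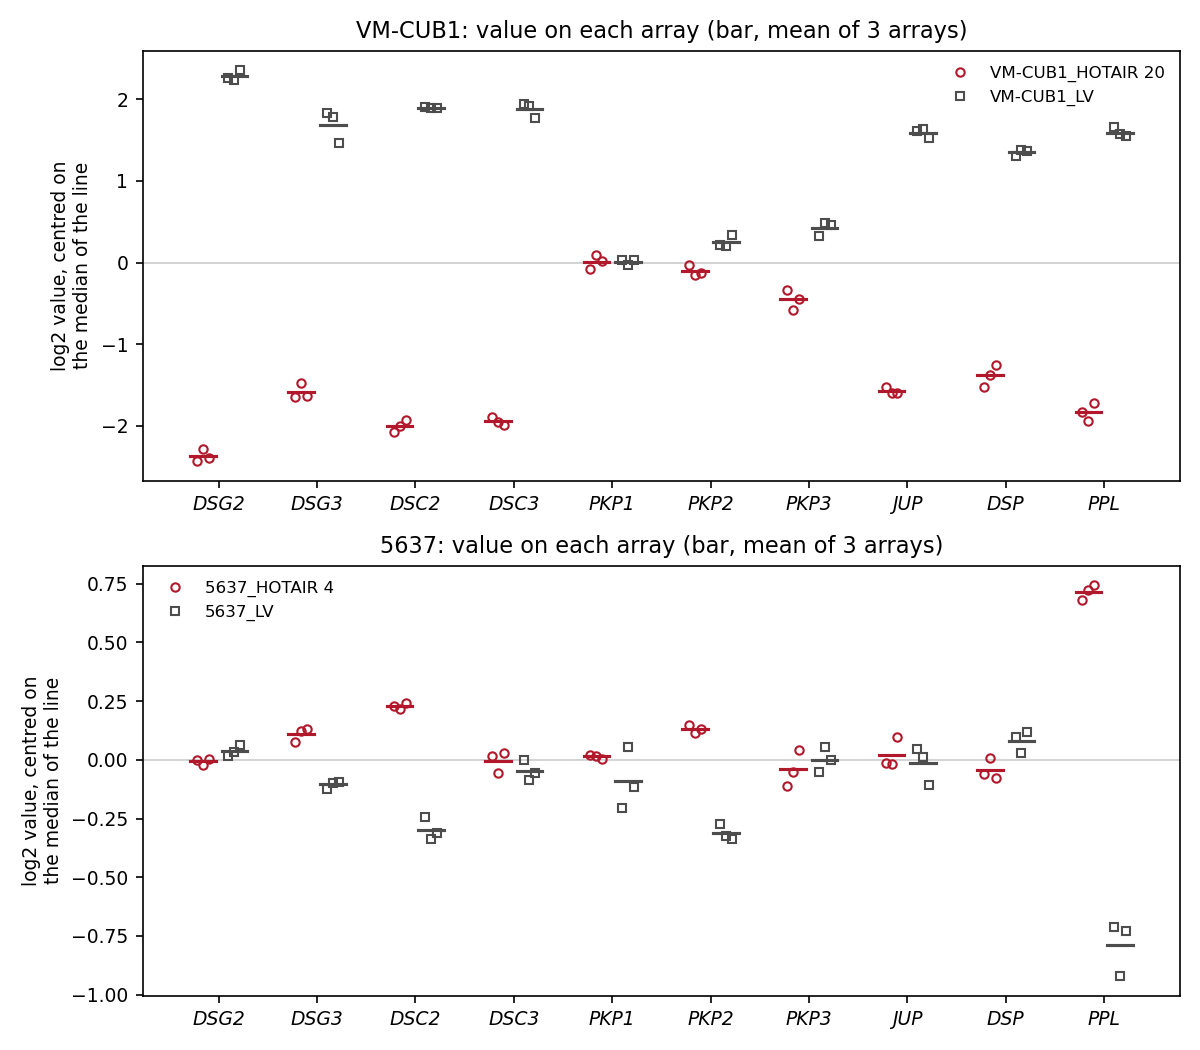
Centred log2 value of each desmosome gene on each array, for VM-CUB1 above and 5637 below, with HOTAIR arrays as circles left of the vector arrays as squares and a bar at the mean of 3 arrays (the vertical scales differ). In VM-CUB1 the groups are apart for 9 genes and overlap for PKP1, and in 5637 the widest gap is that of PPL, with HOTAIR arrays between 0.68 and 0.74 and vector arrays between -0.92 and -0.71.

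The transmembrane cadherins DSG2, DSG3, DSC2 and DSC3 are encoded in 1 gene cluster on chromosome 18. The 250 bases before their start sites are shown here (RefSeq annotation, GRCh38.p14, 5′ to 3′ on the gene's strand), because these genes fell together in VM-CUB1, with those of PKP1, which did not pass the test there. DSG2 is chr18:31497927-31498176 on the plus strand, DSG3 chr18:31447491-31447740 on the plus strand, DSC2 chr18:31102422-31102671 on the minus strand, DSC3 chr18:31042743-31042992 on the minus strand and PKP1 chr1:201283256-201283505 on the plus strand. Capitals mark the E-box CACCTG, which reads CAGGTG on the other strand and is the element that ZEB and SNAI repressors bind.
DSG2: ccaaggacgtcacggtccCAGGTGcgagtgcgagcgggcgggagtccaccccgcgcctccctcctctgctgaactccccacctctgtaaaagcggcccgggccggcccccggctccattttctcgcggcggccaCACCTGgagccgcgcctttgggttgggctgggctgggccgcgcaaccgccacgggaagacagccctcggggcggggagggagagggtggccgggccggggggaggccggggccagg
DSC2: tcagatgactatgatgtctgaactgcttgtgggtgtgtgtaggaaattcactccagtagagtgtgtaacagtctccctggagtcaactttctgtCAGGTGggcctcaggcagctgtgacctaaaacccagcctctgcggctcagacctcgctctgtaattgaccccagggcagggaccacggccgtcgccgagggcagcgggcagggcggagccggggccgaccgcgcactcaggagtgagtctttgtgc
DSC3: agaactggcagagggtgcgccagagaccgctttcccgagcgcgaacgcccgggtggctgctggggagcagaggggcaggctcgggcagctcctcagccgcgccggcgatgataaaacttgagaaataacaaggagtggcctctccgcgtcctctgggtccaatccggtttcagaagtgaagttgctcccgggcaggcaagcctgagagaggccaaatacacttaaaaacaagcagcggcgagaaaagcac
DSG3: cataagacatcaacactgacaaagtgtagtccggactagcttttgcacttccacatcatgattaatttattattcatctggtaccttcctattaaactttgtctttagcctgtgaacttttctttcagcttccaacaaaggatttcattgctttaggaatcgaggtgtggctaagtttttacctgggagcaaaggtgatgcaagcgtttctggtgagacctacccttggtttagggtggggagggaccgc
PKP1: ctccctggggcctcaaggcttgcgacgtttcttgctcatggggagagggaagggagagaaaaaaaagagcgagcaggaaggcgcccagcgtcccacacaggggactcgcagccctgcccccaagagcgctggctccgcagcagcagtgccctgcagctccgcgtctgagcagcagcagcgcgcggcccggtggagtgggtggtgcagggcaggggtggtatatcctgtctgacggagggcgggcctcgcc
The letters CACCTG or CAGGTG began at positions -232 and -116 from the start site of DSG2 and at -156 from that of DSC2, where -1 is the last base before the start site. They were not found in the windows of DSC3, DSG3 and PKP1. The windows searched run on to 50 bases past the start site. Of the desmosome genes, 7 had such windows, 9 in all because DSC2 and JUP have another start. PKP2, PKP3 and PPL had no window and were not searched. CACCTG was found in 4 of the 9 windows, against 20.6% of 35116 windows of all genes. DSP matched at -178 and -85 and the other start of JUP at -54 and -43. The outermost start of JUP and the other start of DSC2 had no match. The GC box GGGCGG was in 6 of the 9 windows (45% of all), and the AP-1 site TGANTCA and the TATA box TATAAA were in 0 of them (7.71% and 11.5% of all), each searched on both strands. These are matches of letters, with no measurement of binding.

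The desmogleins fell steeply in VM-CUB1. DSG2, the desmoglein of all desmosome-bearing tissues, read -2.43, -2.28 and -2.40 in VM-CUB1_HOTAIR 20, against 2.26, 2.23 and 2.36 in VM-CUB1_LV. The arrays of a group lay within a narrow band, far from those of the other group. DSG2 was 25.2-fold lower with HOTAIR (log2 fold change -4.66, SE 0.064, adjusted p = 5.2e-10), the steepest fall of the 10 genes by the mean of probe sets and rank 49 from the lowest of 18132. With only the probe sets not ending in _s_at, _x_at or _a_at, PPL fell further than DSG2 (log2 -5.57 and -4.69). DSG3, the desmoglein of basal layers in stratified epithelia and the pemphigus vulgaris antigen, read -1.65, -1.48 and -1.63 in VM-CUB1_HOTAIR 20, against 1.83, 1.78 and 1.46 in VM-CUB1_LV. It was 9.69-fold lower (log2 -3.28, SE 0.101, adjusted p = 3.3e-08), with the widest SE of the 10, and VM-CUB1_LV replicate 3 lay below the other vector arrays.

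In 5637 the desmogleins moved little. DSG2 read -0.002, -0.022 and 0.003 in 5637_HOTAIR 4, against 0.017, 0.033 and 0.064 in 5637_LV. The HOTAIR arrays were all below the vector arrays, but the log2 fold change of -0.045 (95% interval -0.15 to 0.061) did not pass (adjusted p = 0.49). DSG3 read 0.077, 0.123 and 0.129 in 5637_HOTAIR 4, against -0.125, -0.097 and -0.094 in 5637_LV. It was 1.16-fold higher (log2 0.21, SE 0.047, adjusted p = 6.4e-03), and this call was lost when any 1 of the 6 arrays of 5637 was left out, with adjusted p between 0.015 and 0.029.

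The desmocollins fell by about as much as each other in VM-CUB1. DSC2, the desmocollin found with DSG2 in most epithelia, read -2.07, -2.01 and -1.93 in VM-CUB1_HOTAIR 20, against 1.91, 1.90 and 1.89 in VM-CUB1_LV. It was 14.9-fold lower (log2 -3.90, SE 0.057, adjusted p = 6.4e-10). DSC3, the desmocollin of basal layers, read -1.890, -1.955 and -1.996 in VM-CUB1_HOTAIR 20, against 1.94, 1.92 and 1.77 in VM-CUB1_LV. It was 14.2-fold lower (log2 -3.82, SE 0.065, adjusted p = 1.4e-09). For both genes, the spread inside a group was a small part of the gap between the groups.

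In 5637 the desmocollins differed from each other. DSC2 read 0.230, 0.217 and 0.240 in 5637_HOTAIR 4, against -0.244, -0.339 and -0.312 in 5637_LV, with no overlap. It was 1.44-fold higher with HOTAIR (log2 0.53, SE 0.049, adjusted p = 6.3e-05). DSC3 read 0.016, -0.058 and 0.030 in 5637_HOTAIR 4, against -0.001, -0.088 and -0.058 in 5637_LV. These arrays overlapped, and the log2 fold change of 0.045 (95% interval -0.075 to 0.16) did not pass (adjusted p = 0.54).

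The plakophilins, armadillo proteins that cluster the cadherins and desmoplakin, showed the smallest differences of the 10 genes in VM-CUB1. PKP3, which binds most of the desmosomal cadherins, read -0.33, -0.58 and -0.44 in VM-CUB1_HOTAIR 20, against 0.33, 0.49 and 0.46 in VM-CUB1_LV. It was 1.83-fold lower with HOTAIR (log2 -0.88, SE 0.078, adjusted p = 2.0e-05). PKP2, the plakophilin of simple epithelia and heart, read -0.03, -0.16 and -0.13 in VM-CUB1_HOTAIR 20, against 0.22, 0.21 and 0.33 in VM-CUB1_LV. The groups did not overlap, and PKP2 was 1.28-fold lower (log2 -0.36, SE 0.062, adjusted p = 1.2e-03). PKP1, the plakophilin of stratified epithelia, read -0.08, 0.09 and 0.01 in VM-CUB1_HOTAIR 20, against 0.03, -0.03 and 0.03 in VM-CUB1_LV. Its arrays overlapped, and its log2 fold change of -0.0031 had a 95% interval of -0.14 to 0.14 (adjusted p = 0.97). PKP1 was thus the only desmosome gene of the 10 that did not pass in VM-CUB1.

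In 5637, PKP2 was the plakophilin that passed the test, and it rose. It read 0.147, 0.115 and 0.133 in 5637_HOTAIR 4, against -0.273, -0.325 and -0.339 in 5637_LV, with tight groups that did not overlap. It was 1.36-fold higher (log2 0.44, SE 0.047, adjusted p = 1.3e-04). PKP1 and PKP3 overlapped between the groups, with log2 fold changes of 0.10 (95% interval -0.057 to 0.26, adjusted p = 0.29) and -0.041 (95% interval -0.18 to 0.095, adjusted p = 0.63).

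Plakoglobin, which binds the cadherin tails in desmosomes and adherens junctions alike, fell in VM-CUB1. JUP read -1.53, -1.60 and -1.59 in VM-CUB1_HOTAIR 20, against 1.61, 1.64 and 1.53 in VM-CUB1_LV. It was 8.95-fold lower with HOTAIR (log2 -3.16, SE 0.057, adjusted p = 1.8e-09), a value that rests on a single probe set. In 5637 it read -0.013, -0.019 and 0.097 in 5637_HOTAIR 4, against 0.048, 0.013 and -0.106 in 5637_LV. The arrays overlapped there, and the log2 fold change was 0.036 (95% interval -0.11 to 0.18, adjusted p = 0.68).

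The plakins also fell in VM-CUB1. DSP, the obligate link between desmosome and keratin, read -1.52, -1.37 and -1.25 in VM-CUB1_HOTAIR 20, against 1.30, 1.38 and 1.36 in VM-CUB1_LV. It was 6.64-fold lower (log2 -2.73, SE 0.075, adjusted p = 1.6e-08). PPL read -1.83, -1.95 and -1.72 in VM-CUB1_HOTAIR 20, against 1.66, 1.57 and 1.55 in VM-CUB1_LV. It was 10.7-fold lower (log2 -3.43, SE 0.072, adjusted p = 4.0e-09), and neither plakin overlapped between the groups.

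In 5637, PPL gave the largest difference of the 10 genes, and it was a rise. It read 0.680, 0.724 and 0.743 in 5637_HOTAIR 4, against -0.712, -0.921 and -0.729 in 5637_LV. PPL was 2.83-fold higher with HOTAIR (log2 1.503, SE 0.066, adjusted p = 1.4e-06), rank 227 from the highest of 18132. It was the only one of the 10 that was at least 2-fold higher, against 2.86% of all genes. DSP read -0.061, 0.009 and -0.079 in 5637_HOTAIR 4, against 0.098, 0.031 and 0.117 in 5637_LV. All HOTAIR arrays were below the vector arrays, but the log2 fold change of -0.13 (95% interval -0.25 to -0.0060) did not pass (adjusted p = 0.090).

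**Figure D2:**
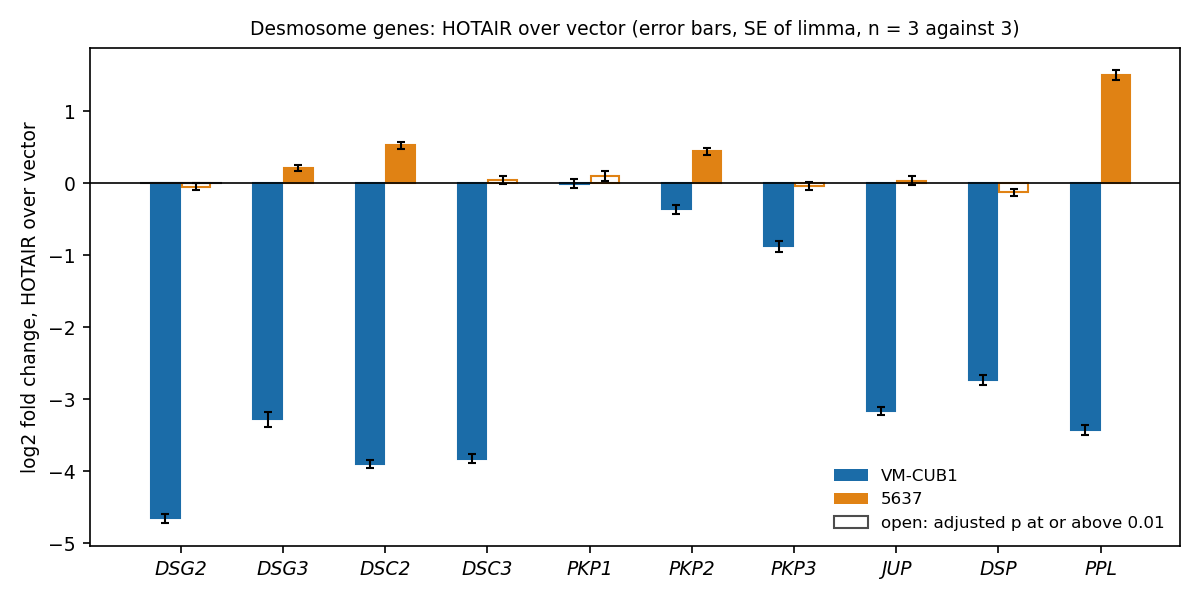
Log2 fold change of HOTAIR over vector for each desmosome gene in VM-CUB1 and 5637, with the SE of limma as error bars (3 against 3 arrays) and open bars where the adjusted p was 0.01 or more. The 4 cadherins, JUP, DSP and PPL lie between -4.66 and -2.73 in VM-CUB1, the plakophilins between -0.88 and -0.0031, and in 5637 only PPL exceeds 1.

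Across the 10 genes, the arrays of the 2 groups did not overlap for 9 in VM-CUB1, all with HOTAIR below vector, while 58.0% of all genes did not overlap there. In 5637 they did not overlap for 6 of 10, of which 4 had HOTAIR above and 2 below, near the 51.3% of all genes. Cadherins fell by 9.69-fold to 25.2-fold in VM-CUB1, the plakins and plakoglobin by 6.64-fold to 10.7-fold, and the plakophilins that passed by 1.28-fold and 1.83-fold. Within VM-CUB1, the genes at ranks 49 to 198 from the lowest were DSG2, DSC2, DSC3, PPL, DSG3, JUP and DSP, in that order, whereas PKP3 stood at rank 1282 and PKP2 at rank 3101. DSC2 and DSC3 differed by less than the sum of their SEs and have no order between them, nor have PPL and DSG3, or DSG3 and JUP. These SEs cover RNA preparations only, and the order also depends on the choice of probe sets. By the median of probe sets, PPL (log2 -3.06) fell less in VM-CUB1 than DSG3 (-3.28) and JUP (-3.16). Without probe sets ending in _s_at or _x_at, DSC2 (-3.56) fell less than DSC3 (-3.82).

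The difference between the lines was tested itself, as the HOTAIR effect in VM-CUB1 minus that in 5637 over all 12 arrays. It was below 0 and passed for 9 of the 10 genes, against 20.1% of all genes. PPL showed the widest difference on the log2 scale (-4.93, SE 0.100, adjusted p = 5.4e-13), followed by DSG2 (-4.61, SE 0.075, adjusted p = 7.9e-14) and DSC2 (-4.43, SE 0.070, adjusted p = 6.7e-14). The differences of DSC3, DSG3, JUP and DSP lay between -3.87 and -2.61, and those of PKP3 (-0.84, adjusted p = 1.0e-05) and PKP2 (-0.80, adjusted p = 8.4e-07) were the smallest that passed. For PKP1 the difference was -0.11 (SE 0.094, adjusted p = 0.39). DSG3, DSC2, PKP2 and PPL were called in opposite directions, lower in VM-CUB1 and higher in 5637, which makes 4 of 10 against 4.17% of all genes. The count is 3 of 10 without DSG3, whose call in 5637 was lost on leaving out any array of that line.

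Single probe sets, each read on its own, agreed in direction where the gene passed. In VM-CUB1, 23 of the 28 probe sets were lower and 0 higher, where 37.1% of all probe sets were called in either direction. The 5 that did not pass were the 3 of PKP1 and the 2 of PKP2. The 3 probe sets of DSG2 were close together, between 24.0-fold and 25.9-fold lower. Those of other genes spread widely. The 6 of DSC2 ran between 6.78-fold and 48.0-fold lower, and the 4 of PPL were 4.33-fold, 12.6-fold, 47.6-fold and 5.14-fold lower. The gene averages of DSC2 and PPL therefore stand for probe sets that measured falls of quite different size. For PKP1, the probe sets pointed in different directions, with log2 fold changes of 0.14 (adjusted p = 0.29), 0.16 (adjusted p = 0.20) and -0.31 (adjusted p = 0.011). The last of these had no overlap between the groups and just missed the threshold, so the value near 0 of the gene is an average over probe sets that differ.

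In 5637, 9 of the 28 probe sets were higher and 0 lower, where 24.7% of all probe sets were called in either direction. All 4 probe sets of PPL passed, at 2.20-fold, 3.45-fold, 3.33-fold and 2.55-fold higher, as did 5 of the 6 of DSC2, which ran between 1.37-fold and 1.499-fold higher. The probe sets of DSG3 (1.19-fold and 1.13-fold higher, adjusted p = 0.013 and 0.035) and PKP2 (1.31-fold and 1.41-fold higher, adjusted p = 0.013 each) did not pass on their own. One of the 3 probe sets of DSC3 read 0.23 with no overlap (adjusted p = 0.050), while the others read -0.067 and -0.031.

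**Figure D3:**
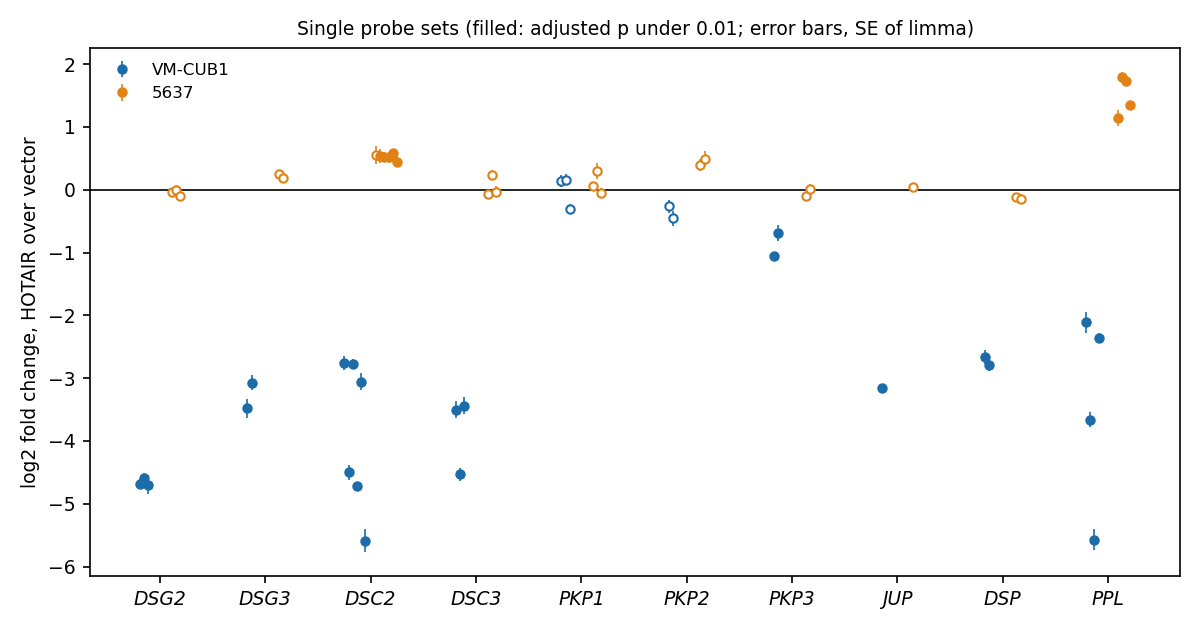
Log2 fold change of HOTAIR over vector for each of the 28 probe sets in VM-CUB1 and 5637, with the SE of limma as error bars and filled points where the adjusted p was under 0.01. DSG2 probe sets lie on top of each other in VM-CUB1, whereas those of DSC2 spread between 6.78-fold and 48.0-fold lower and those of PPL between 4.33-fold and 47.6-fold lower.

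The cadherin genes share a cluster of 560 kb on chromosome 18 (GRCh38.p14, chr18:30989365-31549008), in the order DSC3, DSC2, DSC1, DSG1, DSG4, DSG3 and DSG2. The members that fell in VM-CUB1 are thus at both ends, with DSC1, DSG1 and DSG4 between them. DSC1, DSG1 and DSG4, cadherins of the upper epidermis and hair, did not pass in either line. In VM-CUB1 their log2 fold changes were -0.026 (adjusted p = 0.77), -0.16 (adjusted p = 0.041) and 0.14 (adjusted p = 0.22). Since the values hold no level, whether these 3 genes were expressed at all cannot be read from them. Within 500 kb of the cluster, TTR, B4GALT6, SLC25A52 and TRAPPC8 had a value. SLC25A52 was 1.61-fold higher in VM-CUB1 (adjusted p = 1.3e-03) and B4GALT6, an enzyme of lactosylceramide synthesis, rose in 5637 (log2 0.73, SE 0.050, adjusted p = 1.3e-05). TTR and TRAPPC8 passed in neither line, and none of the 4 was called lower in VM-CUB1.

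**Figure D4:**
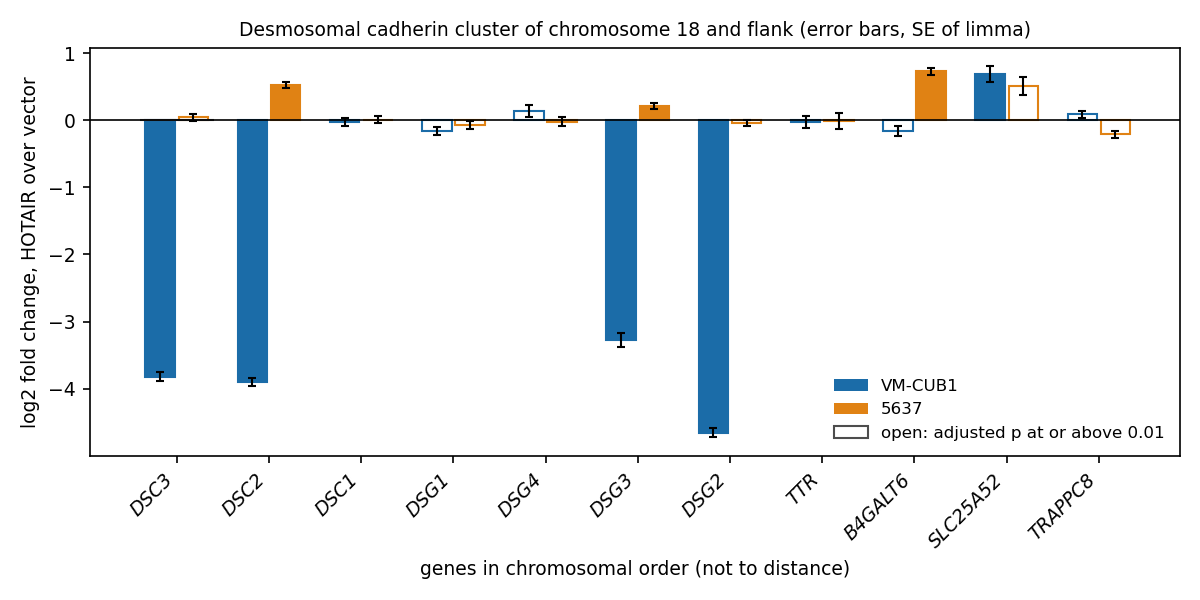
Log2 fold change of HOTAIR over vector for the 11 genes with a value in the desmosomal cadherin cluster and its flank, in chromosomal order, with the SE of limma as error bars and open bars where the adjusted p was 0.01 or more. DSC3, DSC2, DSG3 and DSG2 lie between -4.66 and -3.28 in VM-CUB1, and the genes between and beside them lie between -0.16 and 0.68.

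The remaining members are scattered over the genome. PKP1 lies at chr1:201283506-201332989, DSP at chr6:7541671-7586714, PKP3 at chr11:392596-404908, PKP2 at chr12:32790755-32896777, PPL at chr16:4882507-4937148 and JUP at chr17:41754609-41786711 (GRCh38.p14). JUP, DSP and PPL, which fell in VM-CUB1 as did 4 of the 7 genes of the cadherin cluster, lie on 3 other chromosomes.

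Of 9 other genes of the desmosome, 2 were lower and 1 was higher in VM-CUB1, and 0 passed in 5637. This is no larger a share than the 41.6% and 29.9% of all genes called in these lines. PERP, a membrane protein needed for desmosome assembly in mouse skin, was 2.87-fold lower in VM-CUB1 (log2 -1.52, SE 0.076, adjusted p = 5.8e-07). EVPL, or envoplakin, the partner of periplakin in the cornified envelope, was 1.35-fold lower (log2 -0.44, SE 0.078, adjusted p = 1.5e-03). PNN, or pinin, a protein of desmosomes and of the nucleus, was 1.24-fold higher (log2 0.31, SE 0.057, adjusted p = 2.0e-03). DSG1, DSG4, DSC1, PKP4, CDSN and KAZN did not pass in either line.

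Adherens junctions lie beside desmosomes and share plakoglobin with them. Of 12 genes of this junction (CTNND1 has no probe set with 1 symbol and was not analysed here), 5 were lower and 2 higher in VM-CUB1. Over all genes there, 20.5% were called lower and 21.1% higher. E-cadherin (CDH1) was 13.8-fold lower and P-cadherin (CDH3) 18.2-fold lower, both within the range of the desmosomal cadherins. NECTIN1 was 3.47-fold lower, NECTIN3 1.36-fold lower and AFDN, the nectin-binding afadin, 1.21-fold lower. Beta-catenin (CTNNB1) was 1.58-fold higher and vinculin (VCL) 1.64-fold higher. In 5637, 9 of the 12 were higher and 0 lower, where 14.7% of all genes were called higher and 15.2% lower. NECTIN2 at 2.28-fold and CDH1 at 2.05-fold were the highest, and ARVCF, NECTIN4, AFDN, CDH3, CTNNB1, NECTIN1 and NECTIN3 ran between 1.23-fold and 1.90-fold higher. N-cadherin (CDH2), a classical cadherin counted with the mesenchymal markers, went the other way, at 4.47-fold higher in VM-CUB1 and 1.25-fold lower in 5637.

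Keratins are the filaments that desmosomes anchor. Of 8 keratins (KRT6A, KRT6B, KRT16 and KRT17 have no probe set with 1 symbol and were not analysed here), 5 were lower and 2 higher in VM-CUB1. Over all genes there, 20.5% were called lower and 21.1% higher. KRT19 was 470-fold lower and the basal keratin KRT5 144-fold lower, wider gaps than that of any of the 10 desmosome genes. KRT14 (3.08-fold), KRT13 (2.84-fold) and KRT7 (1.44-fold) were lower too. KRT18 and KRT8, the keratin pair of simple epithelia, were 1.64-fold and 1.29-fold higher. In 5637, KRT5 (1.79-fold), KRT18 (1.38-fold) and KRT8 (1.18-fold) were higher, while KRT15 (1.31-fold) and KRT13 (1.29-fold) were lower.

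**Figure D5:**
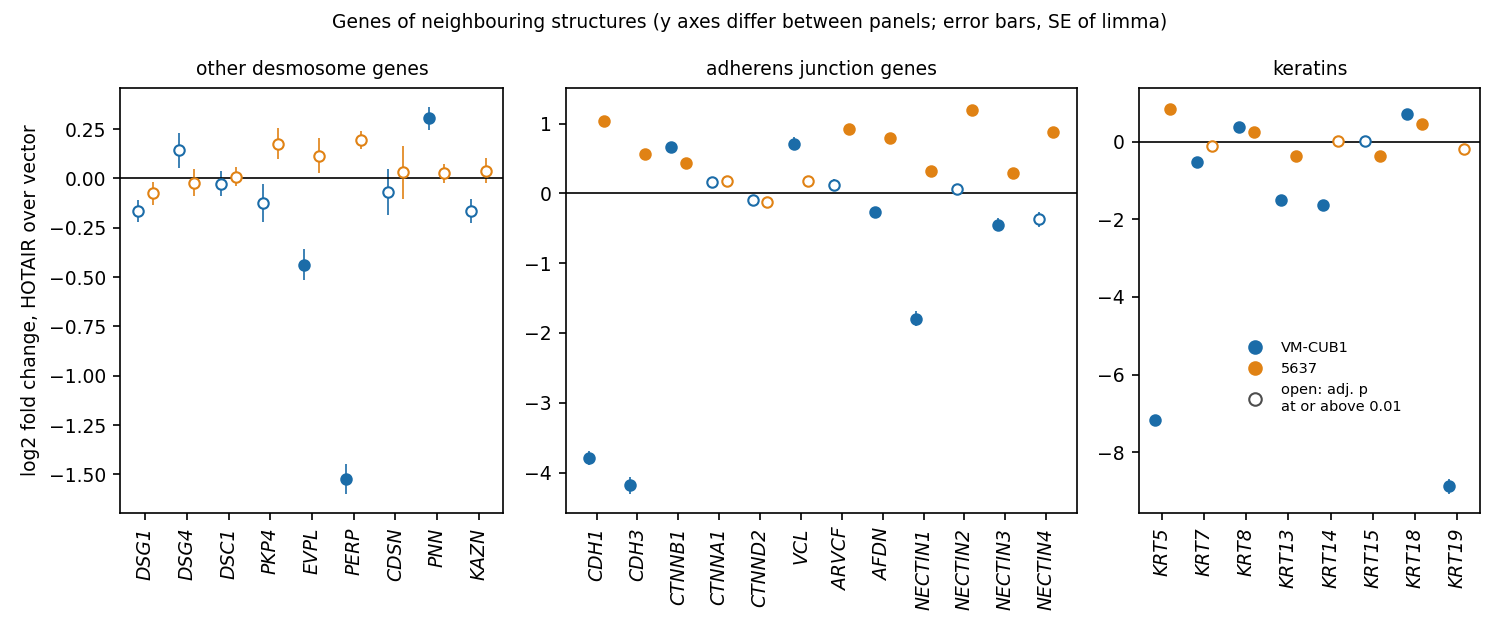
Log2 fold change of HOTAIR over vector for other desmosome genes, adherens junction genes and keratins in VM-CUB1 and 5637, with the SE of limma as error bars and open points where the adjusted p was 0.01 or more (the vertical scales differ). In VM-CUB1, CDH1 and CDH3 lie near -4 and KRT5 and KRT19 below -7. In 5637, 9 of 12 adherens junction genes are called above 0, against 14.7% of all genes.

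Markers of epithelial and mesenchymal cells moved with the groups in VM-CUB1. There, 20.5% of all genes were called lower and 21.1% higher. Of 9 epithelial markers, 7 were lower and 2 (KRT8 and KRT18) higher in VM-CUB1, with EPCAM 296-fold and ESRP1 113-fold lower. The mean of this list read between -1.88 and -1.73 on the VM-CUB1_HOTAIR 20 arrays and between 1.70 and 1.77 on the VM-CUB1_LV arrays. Of 12 mesenchymal markers, 6 were higher and 2 lower in VM-CUB1, with VIM 939-fold, FN1 123-fold and ZEB1 19.0-fold higher and SNAI2 5.50-fold and TWIST1 3.64-fold lower. Their mean read between 1.001 and 1.038 in VM-CUB1_HOTAIR 20 and between -1.115 and -1.0003 in VM-CUB1_LV. In 5637, 3 of 9 epithelial markers were higher and 0 lower, and 3 of 12 mesenchymal markers were higher and 4 lower. Over all genes, 14.7% were called higher and 15.2% lower in that line. Among the mesenchymal markers, SPARC was 5.61-fold and THY1 2.48-fold higher and SNAI2 2.79-fold lower in 5637. The epithelial mean read between 0.030 and 0.068 in 5637_HOTAIR 4 and between -0.11 and 0.015 in 5637_LV. The mesenchymal mean read between 0.048 and 0.092 in 5637_HOTAIR 4 and between -0.10 and -0.063 in 5637_LV. Neither mean stands for its whole list in 5637. The median log2 fold change of the epithelial list was 0.0039, with 4 of 9 below 0 and CDH1 the largest (1.04). That of the mesenchymal list was -0.024, with 7 of 12 below 0 and SPARC the largest (2.49). Of 6 markers of blood and endothelial cells, 1 was lower in VM-CUB1 (CD14, 1.28-fold) and 2 were higher in 5637 (CD14, 1.89-fold, and PECAM1, 1.23-fold), where 41.6% and 29.9% of all genes were called. The means of that list lay between -0.0043 and 0.014 in VM-CUB1_HOTAIR 20 and between -0.031 and 0.067 in VM-CUB1_LV, and between 0.054 and 0.15 in 5637_HOTAIR 4 and between -0.24 and -0.062 in 5637_LV. Which of these markers were at background, and whether the clones keep the epithelial identity of their line, cannot be read from centred values alone. From microscopy and staining, the study describes a more mesenchymal shape, diminished E-cadherin and gained vimentin in VM-CUB1_HOTAIR cells. For 5637_HOTAIR clones it describes an unchanged shape. The part of such markers in the desmosome results was not tested.

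The genes closest in pattern to a desmosome gene were sought for PPL, DSG2 and DSC2, which had the largest summed absolute fold changes over both lines, by the Euclidean distance over the 12 centred array values. PPL was closest to C12orf56 (distance 0.552), MPZL2, an adhesion protein of epithelia (0.664), and CPT1A, the carnitine palmitoyltransferase of the mitochondrial outer membrane (0.789). Their log2 fold changes were -3.25, -3.29 and -3.33 in VM-CUB1 and 1.61, 1.08 and 1.07 in 5637. DSG2 was closest to UGT8 (0.202), the ceramide galactosyltransferase, AFAP1L2 (0.350) and CT83 (0.371), and DSC2 to the transcription factor gene SOX7 (0.238), the nucleotide receptor gene P2RY2 (0.294) and CRYBG1 (0.307). As the 12 values of a gene are mainly 2 group differences, a small distance says little more than that both fold changes were alike.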

How the data were processed

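Total RNA of the 12 preparations was hybridised to Affymetrix PrimeView arrays. The authors processed the arrays in GeneSpring with RMA, which corrects background, applies quantile normalization and summarises probes, and deposited log2 values per probe set, transformed to a median baseline. In the deposited log2 table the medians per probe set within a line were 0 to within 5e-07. The genome build behind the probe sets is not given in the sources used here. Of 49395 probe sets, 102 were controls, 44988 had 1 gene symbol in the platform annotation, 1832 several and 2473 none. For 27 of those with 1 symbol, no gene match was found and the symbol was kept, and 0 symbols were updated. For replicates 2 and 3 of 5637, the source label counts the line name up, and the cell line label, which reads 5637 for all, was used.

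Fold changes were tested with limma 3.58.1 in R 4.3.3 (lmFit and eBayes, two-sided), HOTAIR against vector within each line, and as an interaction over all arrays, with adjustment over all 18132 genes or 44988 probe sets. The code was tested on simulated data. Figures were made with Python 3.11.15 and matplotlib 3.10.9. The members, the lists and the tests were chosen with earlier results of these data known, and the study itself names several of the keratins, CDH1, VIM and ZEB1 for these samples, so their counts are no independent evidence. The rule for named genes took the 10 members, those of the junction, keratin and neighbour lists that passed in either line, and the 3 nearest genes of 3 members. Genes of these lists that passed in neither line, and cell type markers, were named after their values were seen. Promoter windows and gene positions came from RefSeq tables of GRCh38.p14. Alternatives were the median of probe sets, leaving out probe sets marked as matching several transcripts, the methods' t-test, other normalizations, a replicate block, a looser threshold and leaving out each array. The number of arrays limits the precision.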

Additional observations from a re-analysis of the deposited data

Results flagged for a closer look

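Each difference given here is the log2 effect of HOTAIR in VM-CUB1 minus that in 5637, and each was listed because the interaction test over all 12 arrays passed (limma, adjusted p under 0.01). No group had enough arrays for a test of single outlying arrays. By this test, 7614 of all 18132 genes passed in either direction. Of the 10 desmosome genes, 9 differed between the lines. These were DSG2 (-4.61), DSG3 (-3.49), DSC2 (-4.43), DSC3 (-3.87), PKP2 (-0.80), PKP3 (-0.84), JUP (-3.20), DSP (-2.61) and PPL (-4.93).

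Of the other desmosome genes, PERP (-1.72) and EVPL (-0.55) differed downwards and PNN (0.28) upwards. Among adherens junction genes the differences were -4.83 for CDH1, -4.75 for CDH3, -2.11 for NECTIN1, -1.25 for NECTIN4, -1.12 for NECTIN2, -1.06 for AFDN, -0.80 for ARVCF, -0.74 for NECTIN3 and 0.54 for VCL. Among keratins they were -8.69 for KRT19, -8.01 for KRT5, -1.63 for KRT14, -1.14 for KRT13, -0.42 for KRT7, 0.25 for KRT18 and 0.40 for KRT15. Beside the cadherin cluster, B4GALT6 (-0.89) and TRAPPC8 (0.30) differed, although TRAPPC8 passed in neither line on its own.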

How the results depend on the processing

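Of 502 values of desmosome genes under other settings, 483 kept their direction and side of the threshold and 0 reversed a call. The 10 that lost a call were all DSG3 in 5637, whose adjusted p (limma) reached 0.056 in 1 fit over all 12 arrays, against 6.4e-03 as reported. The other 9 were values of PKP1 and JUP near 0. Some settings could not change a direction. The methods' t-test, the 1 fit over all 12 arrays, the replicate block and the looser threshold reuse the reported fold changes. The looser threshold could not lose a call either. With the replicate number as a block, 9 genes were lower in VM-CUB1, 3 were higher in 5637 and 9 differed between the lines. Same-numbered arrays did not deviate together (r between -0.045 and 0.083), and with the replicate block all-gene calls were 6913 in VM-CUB1 and 4728 in 5637, against 7536 and 5430. Without 1 array, the counts were 9 lower in VM-CUB1 and 3 higher in 5637.

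Without probe sets ending in _s_at, _x_at or _a_at, DSG2, DSG3, PKP3 and PPL alone kept a value, and 4 were lower in VM-CUB1, 1 was higher in 5637 and 4 differed between the lines. PPL then rests on 1 probe set, with log2 fold changes of -5.57 in VM-CUB1 and 1.74 in 5637. All-gene calls fell to 2172 and 1454 of 8354 genes tested. Leaving out _s_at and _x_at alone was added after seeing the data and gave 9 and 3. At an adjusted p under 0.05, 14 member probe sets passed higher in 5637, against 9. The methods' t-test gave 9 lower in VM-CUB1 and 4 higher in 5637, and 5892 and 3655 calls over all genes. A filter for dim probe sets was not run, because centred values hold no level.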
